A study of Mus musculus with 9 samples.

Results

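Regulatory T cells (Tregs) rested without interleukin-2 (IL-2) are described here from the 3 libraries of the group labelled no IL-2, out of 9 libraries in 3 groups. The libraries were chosen by their labels alone, and no group is compared with another. The cells were Foxp3GFP+ Tregs, in which a green fluorescent protein reports Foxp3, from spleens of BALB/c mice. They had been transduced with hEGFR-oIL-2Rβ, an orthogonal IL-2 receptor beta chain carrying a human EGFR tag for magnetic isolation. Per the treatment label they spent 48 h with beads against CD3 and CD28 plus hIL-2 at 1000 IU/mL, were isolated by the tag, rested overnight in conditioning medium lacking IL-2, and were then left for another 4 h with no cytokine. All 9 libraries share this stimulation, transduction and overnight rest, so the cells are activated, transduced Tregs and not Tregs fresh from an animal. The labels give no age or sex. Nor do they state whether each library is its own culture or animal, and the spread between the 3 may be technical.

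Tregs are CD4 T cells that restrain other lymphocytes under the control of the transcription factor Foxp3. They make little IL-2 of their own and take up IL-2 from neighbouring cells through a receptor of 3 chains, Il2ra, Il2rb and Il2rg. The cytokine signals through JAK kinases and STAT5 and supports Treg survival, Foxp3 levels and growth. T cell receptor stimulation for its part induces growth, glycolysis and effector genes, and without further stimulation or cytokine activated T cells come to rest.

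Messenger RNA was measured as RPKM, the reads of a transcript scaled by its length and by the depth of the library, so levels of different genes can be set side by side. Every value written with ± is a mean and SD over the 3 libraries (n = 3), and 3 values given together are replicates 1, 2 and 3 in that order. The libraries held 30215091, 26974058 and 16581729 reads in the transcripts taken for the 23992 gene symbols. The share of reads in the RPKM divisor that lay outside those transcripts was 43.3%, 38.9% and 39.3%. Replicate 1 was the lowest of the 3 for 3847 of the 4523 genes at 10 RPKM or more, with a median log2 ratio of 0.12 between replicates 2 and 1. Log2 RPKM correlated across the 10082 genes at or above 1 RPKM in every library with a Pearson r of 0.995 to 0.997 (across genes, which are not independent replicates). With 3 reads as a counting floor, 1000 bases of transcript could be read down to 0.0563, 0.0680 and 0.110 RPKM in replicates 1, 2 and 3.

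The defining Treg genes were all strongly expressed. Ctla4, the inhibitory receptor that removes CD80 and CD86 from antigen-presenting cells, was at 375, 405 and 402 RPKM and ranked 77 of all genes. Il2ra, the high-affinity IL-2 receptor chain CD25, was at 152, 167 and 165 RPKM, which was rank 192. Cd4 was at 117, 131 and 125 RPKM, Ikzf2 (Helios) at 104, 108 and 109 RPKM, and Foxp3 at 74.4, 83.2 and 82.8 RPKM. The 5 markers thus stood between rank 77 and rank 417, in an order that held in each library without overlap. Foxp3 overlaps Ccdc22 and strand use is not stated, so part of its reads may belong to that neighbour. In bulk RNA, fewer cells carrying a transcript and less RNA in each cell cannot be told apart, here and for every level that follows. Mouse Egfr, whose human counterpart supplies the tag, had 8, 12 and 11 reads (0.0461 ± 0.0212 RPKM). For Il2rb, reads of the cell's own gene and of the transduced chain cannot be told apart.

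Genes were sorted into level classes. A gene was classed as high at 50 RPKM or more, moderate from 10, low from 1, trace from 0.1 and silent under 0.1 RPKM. Of 23992 genes, 770 (3.21%) were high, 3753 (15.6%) moderate, 5780 (24.1%) low, 3297 (13.7%) trace and 10392 (43.3%) silent, and 5437 of the silent genes had no read in any library. In all 42.9% of genes reached 1 RPKM, the share beside which the counts of each list below can be read. The high genes carried 53.8% of all RPKM. Between 92.2% and 93.5% of high, moderate, low and silent genes kept their class in each of the 3 libraries, but only 69.6% of trace genes did. The limits belong to the RPKM scale: expressed as TPM, which scales each library to the same total, the same reads gave levels 4.27 times higher in the median of the listed genes, and 3998 genes passed 50.

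Eef1a1, the elongation factor that brings tRNA to the ribosome, was the most abundant transcript at 2558, 2846 and 2744 RPKM. Behind it stood Tmsb4x at 1963 ± 132 RPKM and Tmsb10 at 1396 ± 78.0 RPKM, the thymosins that bind actin monomers, and Tpt1 at 1701 ± 101.4 RPKM. B2m, the light chain of MHC class I, was at 1103 ± 67.9 RPKM. Actb (cytoplasmic actin, 829 ± 40.3 RPKM), Ptma (prothymosin alpha, 821 ± 6.97 RPKM) and Gapdh (705 ± 38.0 RPKM) were the other members of the 20 highest that encode no ribosomal protein. The rest encode ribosomal proteins and include Rps27rt, Rps27, Rpl19, Rps4x, Rps24, Rpl23a, Rpl17, Rpl39, Rpl9, Rps3a1 and Rpl12. These 20 genes held 9.46% ± 0.07 of all RPKM and the highest 100 held 25.2% ± 0.28, while between 593 and 617 genes made up the upper 50% in each library. Ribosomal protein genes supplied 62 of the highest 100. Rps27rt and Rps27 had read totals within 0.183% of each other, so their reads cannot be told apart, and ribosomal protein genes and Gapdh have pseudogene copies that could share theirs. By number of reads, which favours long transcripts, Eef1a1 was followed by Smc4, Malat1, Ptprc, Xist and Ets1 (Malat1 and Xist named after their values were seen).

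**Figure D1:**
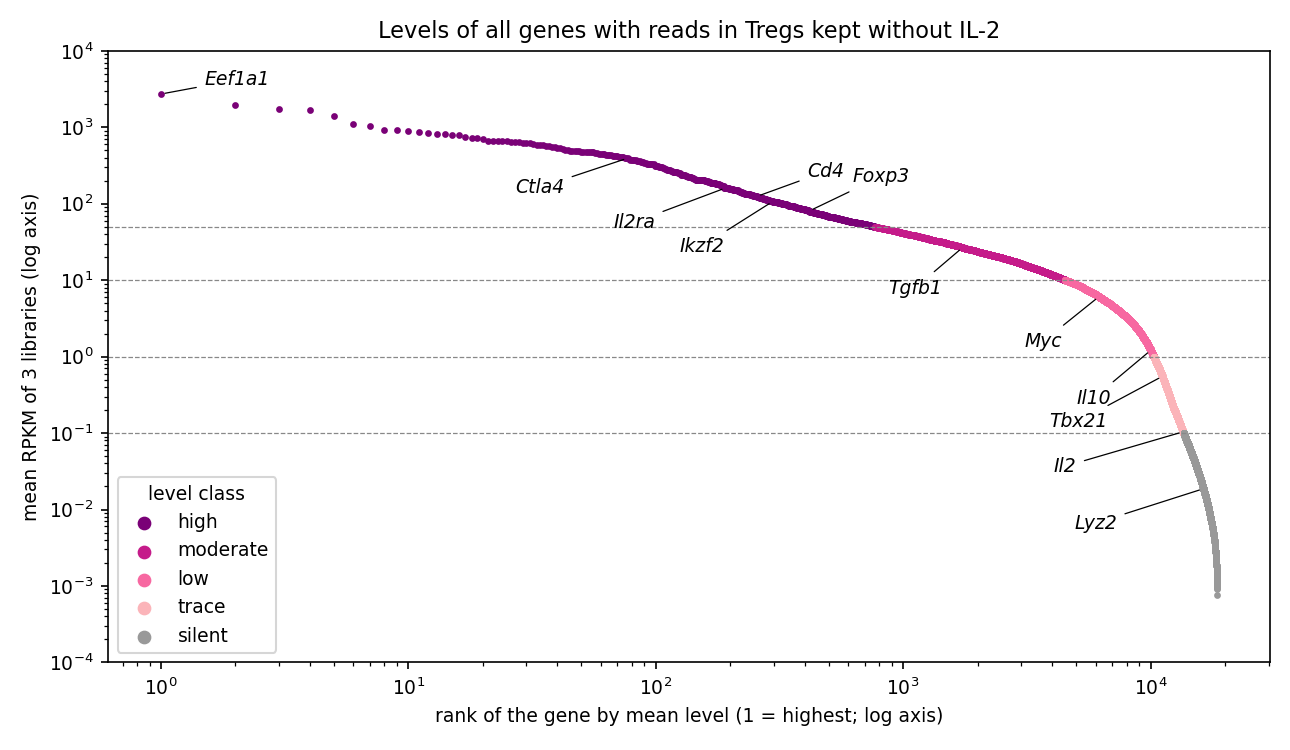
Mean RPKM of every gene with reads (log axis) against its rank (log axis), coloured by level class, with the class limits as dashed lines. The 5 Treg markers sit between rank 77 (Ctla4) and rank 417 (Foxp3), Eef1a1 leads at 2716 RPKM, Il2 lies just above the silent limit and Lyz2 below it.

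Promoter windows of trace and silent genes held fewer CpG than those of the high, moderate and low classes, which differed little. For 15286 of the 20481 protein-coding genes a RefSeq window was at hand, from 250 bases before to 50 bases after the annotated start (GRCm38.p6). The median number of CpG dinucleotides per window was 22 in high, 23 in moderate, 20 in low, 13 in trace and 4 in silent genes. A CpG-rich window, taken as at least 50% G and C with an observed to expected CpG ratio of at least 0.6, was present in 70.7% of high, 77.5% of moderate, 71.5% of low, 44.5% of trace and 18.5% of silent genes, against 48.6% of all. The motif TATAAA, on either strand anywhere in the window, was in 11.4% of high, 5.58% of moderate, 6.08% of low, 10.3% of trace and 22% of silent genes, against 12.9% of all. Moderate genes, not high ones, thus had the most CpG-rich windows and the fewest TATAAA matches. Without the ribosomal protein genes the high class was at 69.5% CpG-rich windows. These are descriptions across genes, which share families and neighbourhoods, and no test was made.

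Windows of 5 genes are printed to show that single genes of 1 level class can differ widely in CpG. Ctla4, Foxp3 and Il2ra are high in these cells yet hold few CpG, like the near-silent Il2, whereas the window of Eef1a1 is CpG-rich. Capitals mark CpG, and each sequence runs 5′ to 3′ on the strand of its gene.
Eef1a1, chr9:78481675-78481974, minus strand, 22 CpG: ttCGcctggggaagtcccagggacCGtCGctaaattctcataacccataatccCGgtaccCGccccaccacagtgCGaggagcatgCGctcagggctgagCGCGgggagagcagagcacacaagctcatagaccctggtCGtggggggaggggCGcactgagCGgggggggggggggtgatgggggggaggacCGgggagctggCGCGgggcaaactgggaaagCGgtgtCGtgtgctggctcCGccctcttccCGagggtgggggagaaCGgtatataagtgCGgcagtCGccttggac
Ctla4, chr1:60908775-60909074, plus strand, 8 CpG: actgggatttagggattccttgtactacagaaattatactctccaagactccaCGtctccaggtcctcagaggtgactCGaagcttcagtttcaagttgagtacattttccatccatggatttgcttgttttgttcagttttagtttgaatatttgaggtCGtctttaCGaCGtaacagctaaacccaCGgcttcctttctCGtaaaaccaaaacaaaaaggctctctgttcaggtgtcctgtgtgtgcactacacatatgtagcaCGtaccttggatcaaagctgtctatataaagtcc
Foxp3, chrX:7579426-7579725, plus strand, 6 CpG: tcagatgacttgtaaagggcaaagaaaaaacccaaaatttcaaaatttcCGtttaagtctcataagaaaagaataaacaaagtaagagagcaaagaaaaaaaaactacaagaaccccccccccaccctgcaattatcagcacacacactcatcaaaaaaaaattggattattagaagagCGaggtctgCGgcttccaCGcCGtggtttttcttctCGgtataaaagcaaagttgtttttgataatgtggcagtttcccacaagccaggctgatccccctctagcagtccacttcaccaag
Il2ra, chr2:11642542-11642841, plus strand, 3 CpG: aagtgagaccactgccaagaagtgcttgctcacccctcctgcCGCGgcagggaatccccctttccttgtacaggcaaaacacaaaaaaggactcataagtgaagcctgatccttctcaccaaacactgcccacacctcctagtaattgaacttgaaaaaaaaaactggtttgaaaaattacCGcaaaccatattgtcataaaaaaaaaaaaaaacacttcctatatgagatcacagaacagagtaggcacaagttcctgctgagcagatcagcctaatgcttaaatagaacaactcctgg
Il2, chr3:37125905-37126204, minus strand, 2 CpG: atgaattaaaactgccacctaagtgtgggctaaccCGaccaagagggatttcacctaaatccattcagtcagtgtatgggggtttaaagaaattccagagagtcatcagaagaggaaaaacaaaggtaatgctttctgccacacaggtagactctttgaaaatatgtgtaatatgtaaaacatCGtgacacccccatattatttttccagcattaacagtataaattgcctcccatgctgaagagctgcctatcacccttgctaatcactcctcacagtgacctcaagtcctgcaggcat
Counting the annotated start as 0, TATAAA begins at position -32 of Foxp3 and -31 of Il2, and at position 40 of Ctla4, inside the transcript. It has no match in the windows of Eef1a1 and Il2ra, which says only that these letters are not there.

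Gene lists differed in the same feature. Of the 46 cytokine and TNF ligand genes with a window, 8.70% had a CpG-rich one and 37.0% had TATAAA. Costimulatory and inhibitory receptors had CpG-rich windows in 15.8% of 19 genes, a list led by Ctla4 (394 RPKM). Treg and T cell lineage factors had them in 63.8% of 47, JAK kinases, SOCS proteins and phosphatases in 77.8% of 27, and mitosis genes in 88.2% of 34.

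**Figure D2:**
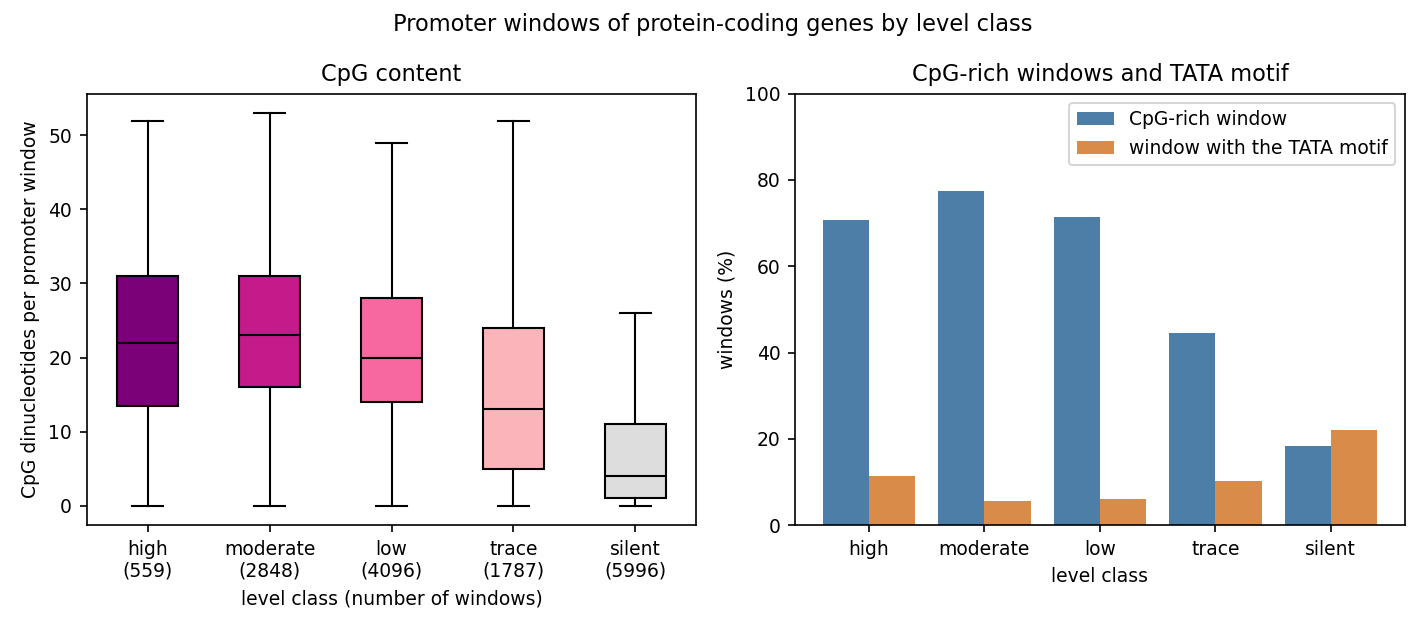
Left, CpG dinucleotides per 300-base promoter window in each level class (box, quartiles; line, median; whiskers, up to 1.5 times the box; points beyond them not drawn). Right, the percentage of windows that are CpG-rich or hold the TATAAA motif: CpG-rich windows make up 77.5% of the moderate and 18.5% of the silent class.

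Transcripts of all 3 IL-2 receptor chains were high. Of 50 cytokine receptor genes, 6 were high, 31 reached 1 RPKM and 11 were silent, with a median of 3.03 RPKM beside 0.289 RPKM over all genes. Il2rg, the common gamma chain, was at 165, 186 and 182 RPKM, and Il2rb at 90.4, 104 and 105 RPKM. Il2ra (152, 167 and 165 RPKM) overlapped Il2rg in its values, and both lay above Il2rb in each library. The ratio of Il2ra to Il2rb was 1.61 ± 0.06 and that of Il2rg to Il2rb 1.78 ± 0.05. The Il2rb value may include reads of the transduced chain, so the level of the cell's own Il2rb is not known. Its class, order and ratios here hold for the counted reads only. Il7r, the IL-7 receptor chain usually low on Tregs, was high at 137, 149 and 144 RPKM, below Il2ra and above Il2rb in each library.

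Receptors for interferons and other cytokines ranged from the high to the silent class. Ifngr1, the ligand-binding chain for interferon gamma, was the highest cytokine receptor at 337, 370 and 360 RPKM, while its partner Ifngr2 was at 20.6 ± 1.5 RPKM. Il18r1, a chain of the IL-18 receptor, was at 71.6, 73.0 and 80.8 RPKM and its partner Il18rap at 7.42 ± 0.548 RPKM. Il1rl1 (ST2), the receptor for the alarmin IL-33, was at 23.9 ± 0.664 RPKM. Ifnar1 was at 43.7 ± 0.855 RPKM, Il4ra at 36.1 ± 2.26 RPKM, Il6ra at 35.4 ± 1.97 RPKM and Tgfbr2 at 27.4 ± 2.11 RPKM. Some chains known from effector T cells lay lower. Il12rb2, for IL-12, was at 1.71 ± 0.111 RPKM, Il9r at 0.380 ± 0.109 RPKM and Il23r at 0.0315 ± 0.0055 RPKM with 5, 3 and 2 reads. Il1r1 was silent at 0.0645 ± 0.0154 RPKM, and Csf1r, a macrophage receptor, had a single read in 1 of the 3 libraries.

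T cell receptor components were present almost throughout: 30 of 32 reached 1 RPKM, 14 were high and none was silent, with a median of 48.5 RPKM. The phosphatase Ptprc (CD45) was at 374 ± 17.6 RPKM and the adhesion receptor Cd2 at 370 ± 18.9 RPKM. The CD3 chains Cd3g (198 ± 11 RPKM), Cd3e (172 ± 4.81 RPKM) and Cd3d (125 ± 6.33 RPKM) were all high. Lck, the kinase that starts the signal, was at 121 ± 7.71 RPKM, and Zap70, which carries it on, at 22.5 ± 1.38 RPKM. The 2 members under 1 RPKM were Plcg2 (0.292 ± 0.0232 RPKM), the phospholipase of B and myeloid cells, and Cd8a (0.268 ± 0.0642 RPKM).

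Costimulatory and inhibitory receptors numbered 27 of 33 at 1 RPKM or more, with a median of 18.0 RPKM. Ctla4 exceeded its relative Cd28 (103, 113 and 111 RPKM) by 3.61 ± 0.03 times in the transcripts taken. Icos was at 91.6, 103 and 99.6 RPKM, below Cd28 in each library with overlapping ranges. Folr4, the folate receptor 4 found on Tregs, was at 66.9 ± 5.38 RPKM. Nt5e (CD73), which makes adenosine from AMP, was at 51.2 ± 2.37 RPKM. Entpd1 (CD39), which supplies that AMP from ATP, was at 7.01 ± 0.601 RPKM. Lrrc32 (GARP), which holds latent TGF-beta on the surface, was at 46.4 ± 3.65 RPKM, and Nrp1 at 42.8 ± 3.11 RPKM. Cd96 was at 50.8 ± 3.74 RPKM. Tigit (28.8 ± 1.34 RPKM) and Pdcd1 (PD-1, 22.7 ± 1.53 RPKM) were moderate. Among the lowest of the list, Lag3 was at 0.983 ± 0.20 RPKM, Klrg1 at 0.631 ± 0.0669 RPKM, Havcr2 (TIM-3) at 0.386 ± 0.108 RPKM and Cd160 at 0.0898 ± 0.0313 RPKM.

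Among 28 TNF receptor superfamily genes, 4 were high and 6 silent. The high members were Tnfrsf18 (GITR) at 136, 150 and 140 RPKM, Cd27 at 104 ± 6.91 RPKM, Tnfrsf9 (4-1BB) at 85.0 ± 5.99 RPKM and Tnfrsf4 (OX40) at 65.6 ± 6.66 RPKM, all costimulators of T cells. Tnfrsf8 (CD30) was at 0.383 ± 0.0940 RPKM, although its ligand gene Tnfsf8 was at 42.3 ± 2.48 RPKM. Tnfrsf17, a receptor of plasma cells, had no reads, which allows up to 0.0296 RPKM (3 reads over the 3 libraries).

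Receptors that steer lymphocyte traffic lay at very different levels. Ccr7, the receptor for lymph node chemokines, was at 83.8, 96.5 and 93.0 RPKM, and Cxcr4 was level with it at 86.1, 96.4 and 90.6 RPKM. S1pr1, which guides lymphocytes out of lymphoid organs, was at 153, 168 and 161 RPKM. Of the other chemokine receptors Ccr2 was at 43.0 ± 1.15 RPKM and Ccr4 at 13.9 ± 0.638 RPKM. Ccr8, a receptor of tissue Tregs, was at 3.90 ± 0.473 RPKM, Ccr6 at 0.666 ± 0.163 RPKM, Cxcr5 at 0.330 ± 0.116 RPKM and the gut receptor Ccr9 at 0.0716 ± 0.0260 RPKM. In all, 10 of 23 chemokine receptors (43.5%) reached 1 RPKM, close to the 42.9% of all genes, and 8 were silent.

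Integrins and adhesion molecules held 22 of 33 members at 1 RPKM or more. Itgb7 was at 85.9 ± 6.65 RPKM, and Itgae (CD103), which pairs with it to bind E-cadherin, at 48.7 ± 3.33 RPKM. Itgb1 was at 66.8 ± 4.31 RPKM, Selplg, the selectin ligand PSGL-1, at 63.8 ± 8.08 RPKM and Cd44 at 22.1 ± 1.37 RPKM. Itgb6, a chain best known from epithelium, was at 32.7, 32.2 and 101.3 RPKM. It is high only through replicate 3, and its mean of 55.4 RPKM became 32.5 RPKM without that library. Itgax and Itgad, of myeloid cells, were silent.

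G protein coupled receptors for lipids and purines were led by P2ry10, a lysophospholipid receptor of lymphocytes, at 307, 324 and 311 RPKM. Gpr132 was at 55.8 ± 2.98 RPKM and Gpr83, a receptor enriched in Tregs, at 6.37 ± 0.321 RPKM. S1pr1 made up 85.4% ± 0.46 of the sphingosine phosphate receptor family. Adora2a made up 91.5% ± 2.3 of the adenosine receptors but was itself low at 5.71 ± 0.415 RPKM. Ptger4 (9.03 ± 0.699 RPKM) gave 61.7% ± 2.0 and Ptger2 (5.24 ± 0.547 RPKM) 35.8% ± 1.3 of the prostaglandin E receptors. Of 16 Toll-like and Notch receptors 7 reached 1 RPKM (43.8%) and 8 were silent, shares not far from those of all genes, and Tlr1 led them at 24.2 ± 1.6 RPKM.

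**Figure D3:**
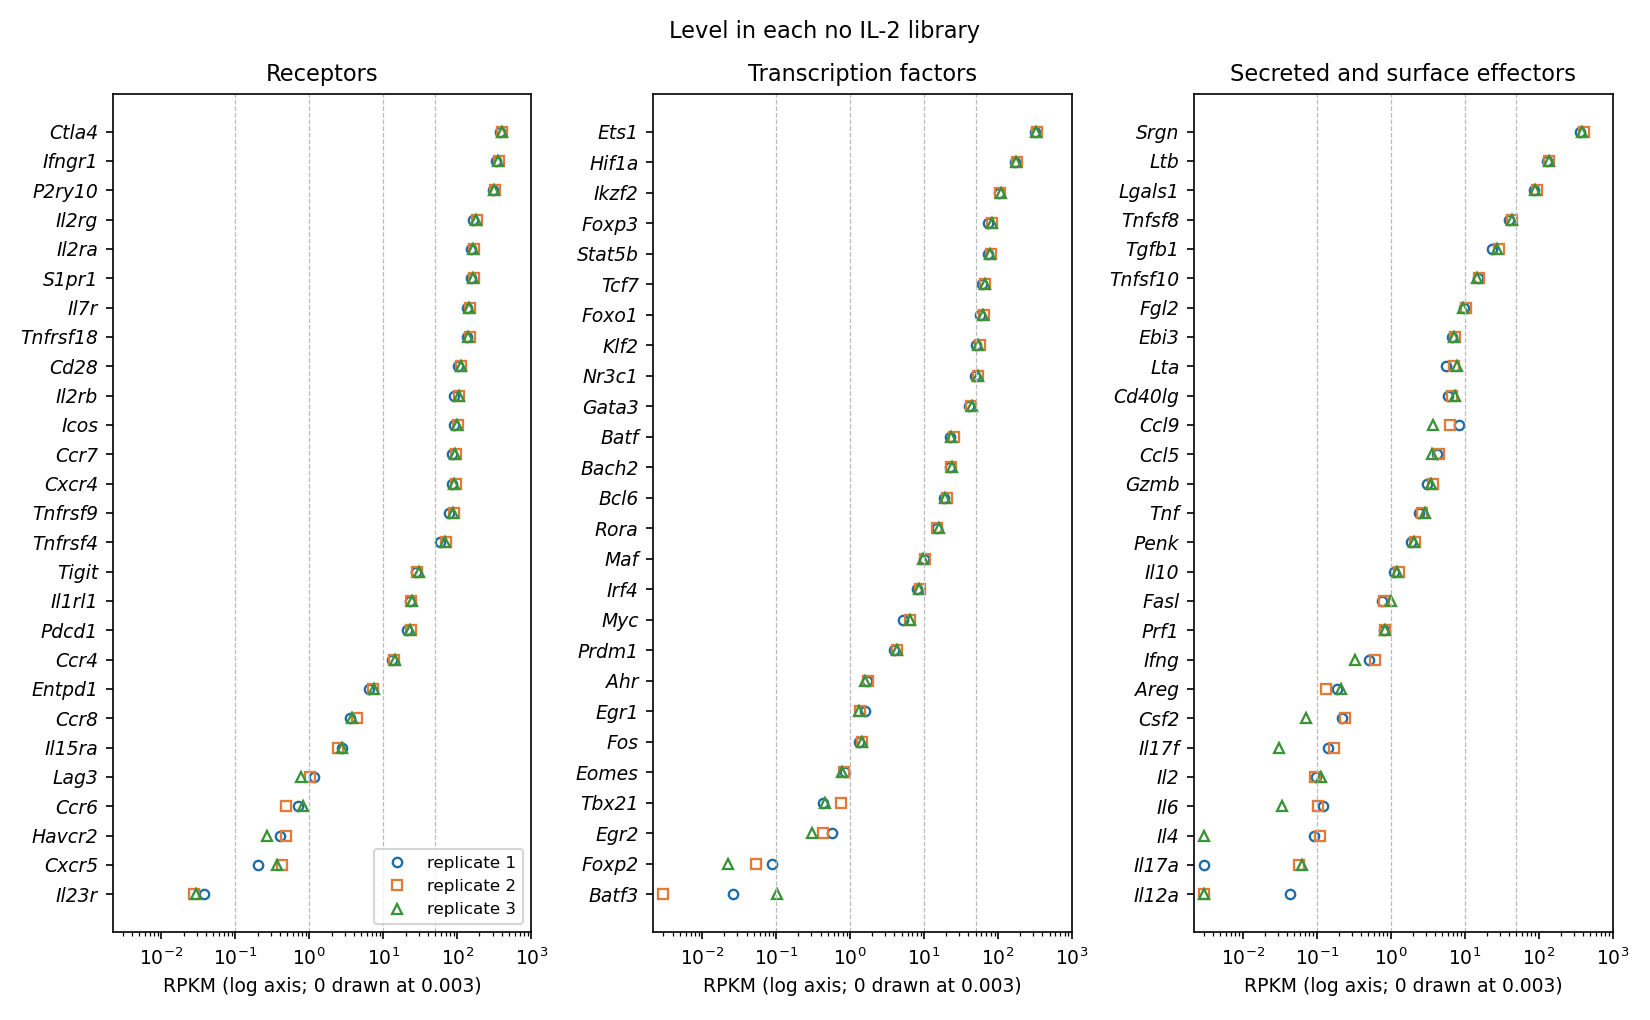
RPKM of chosen receptors, transcription factors and effectors in each library (log axis; a circle, square and triangle for replicates 1, 2 and 3; 0 drawn at 0.003; dashed lines, class limits). The 3 symbols nearly coincide above 1 RPKM, from Ctla4 at 375 to 405 RPKM downward, and scatter below 0.1 RPKM, where Il4 has reads in 2 of 3 libraries.

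The transcription factors of the Treg and T cell lineage were widely present, with 50 of 61 at 1 RPKM or more and a median of 14.6 RPKM. Ets1, a factor of the T lineage that also binds Foxp3 regulatory DNA, was the highest at 313, 337 and 328 RPKM. Ikzf2 made up 45.3% ± 0.71 of the Ikaros family, before Ikzf3 (52.5 ± 3.16 RPKM) and Ikzf1 (47.7 ± 2.28 RPKM), which overlapped. Foxp3 made up 64.3% ± 0.60 of the FOXP family and exceeded Foxp1 (37.8 ± 1.29 RPKM) by 2.12 ± 0.06 times.

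Several factors known from quiescent and memory T cells were in the high or moderate class. Tcf7 (TCF-1) was at 60.8, 67.8 and 66.9 RPKM and Lef1 at 49.3, 54.6 and 54.7 RPKM, with Tcf7 the higher in each library. Foxo1, which PI3K signalling drives out of the nucleus and which activates Il7r and Klf2, was at 58.1, 65.9 and 63.3 RPKM. Klf2, which activates S1pr1, was at 50.5, 56.7 and 54.4 RPKM. Foxo1, Klf2, Il7r and S1pr1 were each in the high class, Klf2 close to the limit of 50 RPKM. Whether either factor acts on these genes in these cells was not tested. Satb1 was at 51 ± 0.991 RPKM and Bach2, a repressor of effector genes, at 23.3 ± 0.668 RPKM.

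Factors that specialise effector T cells were spread over a wide range. Gata3 was at 41.2, 43.7 and 45.1 RPKM and Bcl6 at 18.6, 20.2 and 19.1 RPKM. Maf (10.1 ± 0.350 RPKM), Irf4 (8.04, 8.80 and 8.53 RPKM) and Prdm1 (BLIMP-1, 4.21 ± 0.181 RPKM), factors of effector Tregs, were lower. Eomes was at 0.825 ± 0.0511 RPKM. Tbx21 (T-bet), of T helper 1 cells, was at 0.434, 0.764 and 0.459 RPKM. Gata3 overlaps 2 annotated noncoding genes and shares that uncertainty with Foxp3. Tox2 was silent at 0.00747 ± 0.0129 RPKM.

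Of 56 factors that respond to signals, 46 reached 1 RPKM, 5 were high and 4 silent, with a median of 12.1 RPKM. Hif1a, the oxygen-sensitive activator of glycolysis genes, was at 168, 181 and 175 RPKM. Stat5b, the STAT that IL-2 activates, was at 73.4, 80.6 and 79.0 RPKM and was the leading STAT with 24.8% ± 0.34 of the family, whereas Stat5a was at 19.9 ± 1.77 RPKM. Stat4 was at 60.01 ± 2.52 RPKM and Nfkb1 at 63.0 ± 3.28 RPKM. Myc, the growth regulator that IL-2 and T cell receptor signals induce, was at 5.28, 6.47 and 6.49 RPKM and ranked 6186. Members of the AP-1 and EGR families, known as early responders to stimulation, differed widely. Junb was at 36.0 ± 2.4 RPKM and Fosl2 at 28.3 ± 1.29 RPKM, while Fos was at 1.42 ± 0.0783 RPKM, Egr1 at 1.44 ± 0.159 RPKM, Egr2 at 0.436 ± 0.127 RPKM and Egr4 at 0.00596 ± 0.0103 RPKM.

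Of 39 nuclear receptors 15 reached 1 RPKM (38.5%, beside 42.9% of all genes) and 11 were silent (28.2%, beside 43.3%). Nr3c1, the glucocorticoid receptor, was the only high member at 52.4 ± 2.38 RPKM, and Vdr, the vitamin D receptor, was at 0.170 ± 0.0209 RPKM. Of 35 factors that specify other cell types, 3 reached 1 RPKM and 25 were silent. The 3 were Nanog at 13.7, 9.98 and 5.40 RPKM, Gata1 at 4.97 ± 0.341 RPKM and Nkx2-1 at 1.36 ± 0.267 RPKM. Nanog has pseudogene copies in the genome and its reads may be theirs. Spi1, the myeloid and B cell factor PU.1, was at 0.0170 ± 0.0294 RPKM and Pax5, of B cells, at 0.0757 ± 0.0649 RPKM.

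Most genes of the machinery downstream of the cytokine receptors had transcripts at 1 RPKM or more. Jak1, which couples to Il2rb, was at 180, 199 and 194 RPKM and made up 66.4% ± 0.65 of the JAK family, while Jak3, which couples to Il2rg, was at 26.8 ± 1.84 RPKM. Of 35 JAK, SOCS and phosphatase genes, 33 reached 1 RPKM and none was silent. Some products that STAT5 is known to induce follow. Pim1, a survival kinase, was at 129, 142 and 144 RPKM and Socs2 at 52.4, 58.8 and 55.9 RPKM. Cish, the feedback inhibitor, was at 13.2, 14.7 and 15.5 RPKM, and Socs1 at 1.85, 2.35 and 3.45 RPKM. Socs3 was at 5.56 ± 0.375 RPKM and Dusp6, a phosphatase of the ERK pathway, at 1.18 ± 0.165 RPKM.

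Brakes on PI3K, mTORC1 and proliferation formed a well-expressed list, with 12 of 36 high, 33 at 1 RPKM or more and a median of 30.9 RPKM. Dgka, which removes the second messenger diacylglycerol, was at 225, 231 and 250 RPKM. Cdkn1b (p27), the inhibitor of cyclin-dependent kinases, was at 241, 235 and 229 RPKM. Txnip, which restrains glucose uptake, was at 180, 206 and 195 RPKM. Btg1 was at 129 ± 7.77 RPKM and Ddit4 (REDD1), an inhibitor of mTORC1, at 110 ± 4.21 RPKM. Cdkn2b, Cdkn1c and Cdkn2a were each under 1 RPKM.

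Survival and death genes of the BCL2 family were both present. Mcl1, a survival protein that Tregs need, was at 95.4, 102 and 100.1 RPKM and Bcl2 at 24.2, 25.5 and 27.7 RPKM. Bcl2l11 (BIM), which promotes death on cytokine withdrawal, was at 44.8, 48.9 and 50.003 RPKM. Its ratio to Bcl2 was 1.86 ± 0.06 in the transcripts taken, and that of Mcl1 to Bcl2 was 3.85 ± 0.21. Of 18 members 14 reached 1 RPKM, and Hrk, known from neurons, was silent at 0.0310 ± 0.0161 RPKM. Bcl2l11 and Bcl2 overlap other annotated genes.

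Of 62 cytokines and TNF ligands, 18 reached 1 RPKM (29.0%, beside 42.9% of all genes). The shares that were high (2 genes, 3.23%) and silent (28 genes, 45.2%) were close to the 3.21% and 43.3% of all genes, and 12 had no read. The median was 0.138 RPKM, beside 0.289 RPKM over all genes. Ltb (lymphotoxin beta) was at 129, 140 and 137 RPKM and Mif at 60.9 ± 5.19 RPKM. Tgfb1, the suppressive cytokine, was at 23.8, 28.9 and 27.5 RPKM and made up 98.5% ± 0.42 of the TGF-beta ligands. Il16 was at 32.6 ± 2.33 RPKM. Il10, another suppressive cytokine, was at 1.12, 1.28 and 1.23 RPKM. Ebi3, a subunit of IL-35, was at 7.11 ± 0.423 RPKM, whereas its partner Il12a was at 0.0148 ± 0.0256 RPKM.

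Il2 itself was at the edge of detection with 5, 4 and 3 reads, or 0.0993, 0.0958 and 0.116 RPKM. Ifng was at 0.513, 0.620 and 0.334 RPKM. Il4 had 3, 3 and 0 reads, Il17a 0, 3 and 2, Il13 5, 0 and 0, and Il5 3, 1 and 0. No read fell on Il9, Il22 or Il3, which allows up to 0.0449, 0.0221 and 0.0283 RPKM (3 reads over the group, counting error only). Of these cytokines only Ifng thus had more than 5 reads in every library. Of 33 chemokines, 2 reached 1 RPKM (6.06%) and 18 were silent (54.5%). Ccl5 was at 4.11 ± 0.493 RPKM, and Ccl9 at 8.32, 6.41 and 3.74 RPKM was highest in replicate 1.

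Of 36 suppressive and tissue mediators of Tregs, 29 reached 1 RPKM. The 4 high members were Ctla4, Lgals1 (galectin-1) at 91.3 ± 4.98 RPKM, and Folr4 and Nt5e, given above. Among the moderate members were Capg at 48.8 ± 2.22 RPKM and Ecm1 at 46.3 ± 3.05 RPKM. Areg, the tissue repair factor of Tregs, was at 0.178 ± 0.0417 RPKM. Arg1 and Ido1, which deplete amino acids, had no reads, allowing up to 0.0163 and 0.0155 RPKM. Of 25 granzyme and granule genes 2 were high, 7 moderate, 11 low and 5 trace. Srgn, the proteoglycan that packs granules, was at 362, 411 and 392 RPKM and Lamp1 at 66.8 ± 4.38 RPKM. Of the killing proteins, Gzmb was at 3.09, 3.73 and 3.47 RPKM, Gzma at 1.88 ± 0.105 RPKM and Prf1 (perforin) at 0.823, 0.827 and 0.838 RPKM. Gzmd was at 3.06 ± 0.379 RPKM, but Gzmd to Gzmg are close paralogs and can share reads.

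**Figure D4:**
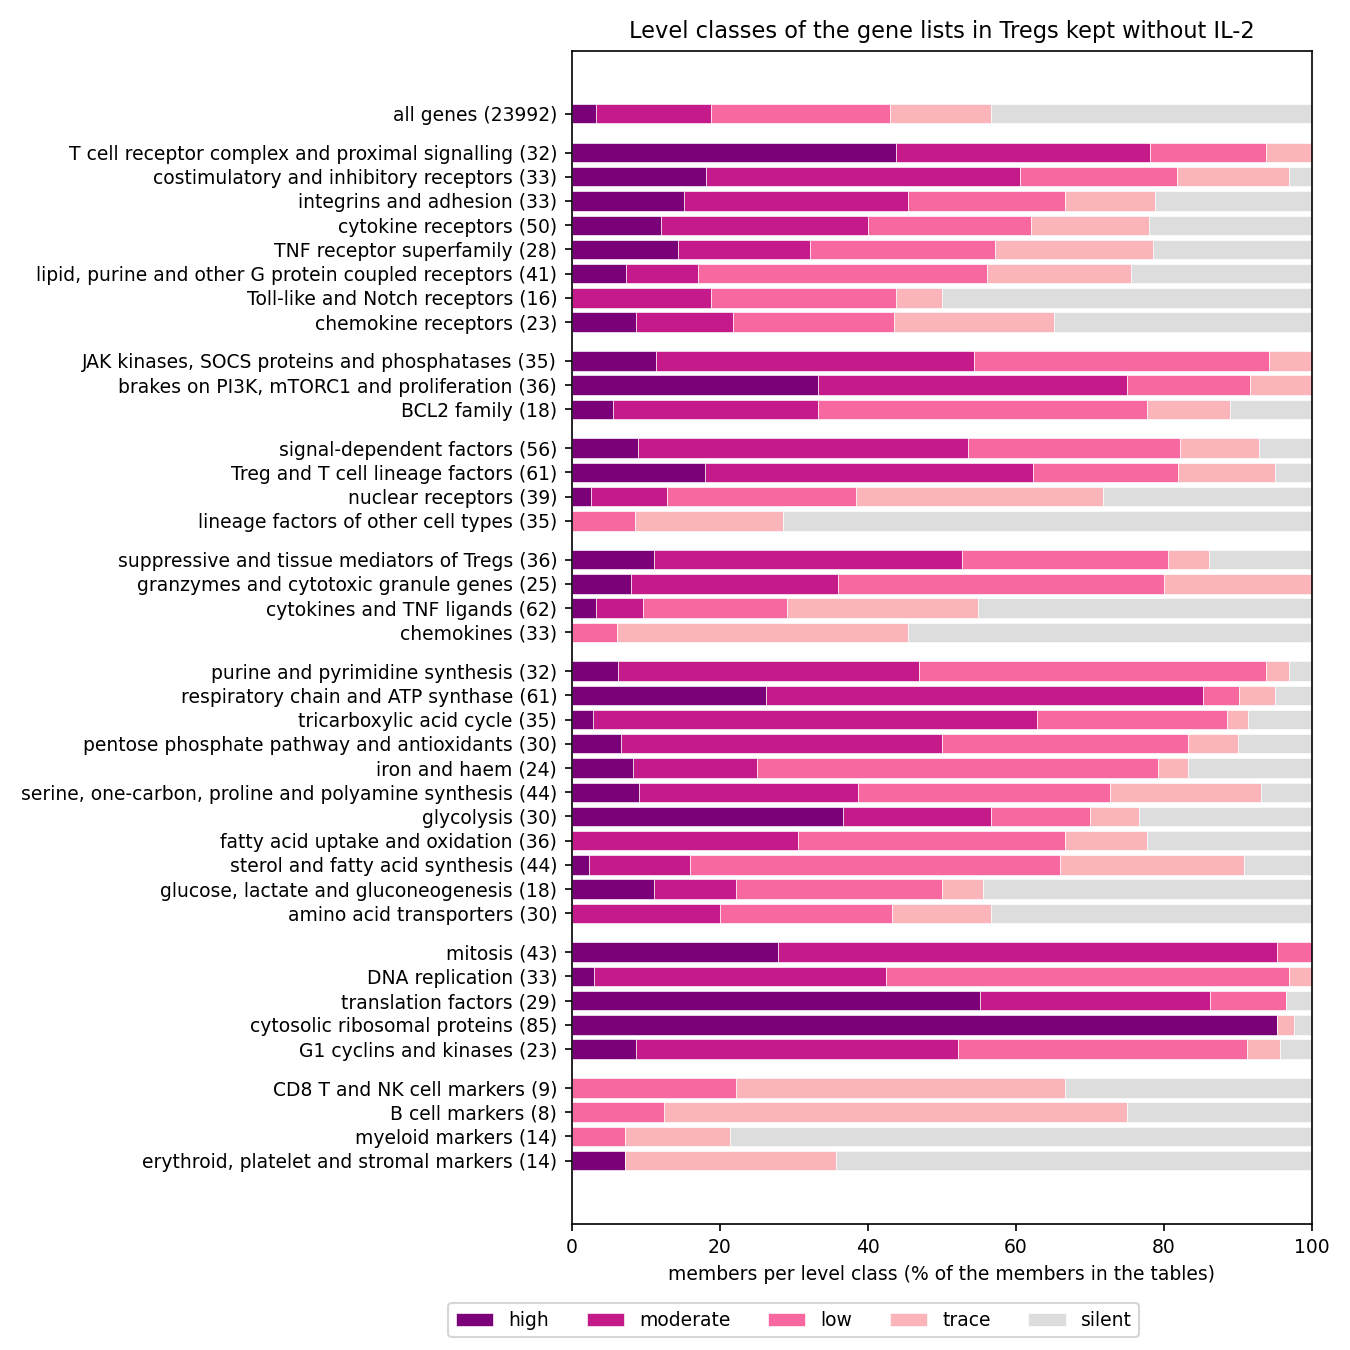
Share of the members of each gene list in each level class (number of members in brackets), grouped by role, with all genes at the top. Ribosomal proteins are high in 81 of 85 members and T cell receptor genes in 14 of 32, beside 3.21% of all genes. The silent class holds 18 of 33 chemokines (54.5%) and 28 of 62 cytokines (45.2%), the latter close to the 43.3% of all genes.

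Glycolysis held the largest share of all RPKM among the metabolic lists, 1.54% in 30 genes, of which 11 were high and 7 silent. Its median was 21.0 RPKM, below the 29.8 RPKM of the respiratory chain and ATP synthase list. The silent members included Pklr, Hk3, Gapdhs, Ldhc, Pgk2 and Pgam2, known as forms of liver, muscle, sperm or other blood cells. Ldha, which turns pyruvate to lactate, was at 420, 469 and 440 RPKM and made up 96.3% ± 0.02 of lactate dehydrogenase. Pkm was at 438.4 ± 11.2 RPKM, Aldoa at 416 ± 15.8 RPKM (96.9% ± 0.19 of aldolase) and Pgk1 at 396 ± 18.8 RPKM. The entry steps were shared: Hk1 gave 58.3% ± 0.08 and Hk2 41.3% ± 0.07 of hexokinase, and Pfkp 64.5% ± 0.29 of phosphofructokinase. The glucose transporters were mainly Slc2a3 at 69.5, 74.6 and 76.2 RPKM and Slc2a1 at 54.2, 61.5 and 61.6 RPKM, and the lactate exporters mainly Slc16a3 (32.0 ± 2.21 RPKM, 92.1% ± 0.44 of its family). Gluconeogenic Fbp1, Fbp2 and G6pc had no reads.

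Across 27 families of isozymes or related proteins, the leading member held over 50% in 24 and over 90% in 10. The leader lay above the next member in every library without overlap in 26. The exception was acetyl-CoA carboxylase, where Acaca (1.04 ± 0.0909 RPKM) and Acacb (0.889 ± 0.103 RPKM) overlapped. Where the values of all transcripts of a symbol were summed, 2 leaders changed: the share of Runx3 was 14% in place of 48.0%, and that of Ccnd2 39% in place of 66.0%.

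**Figure D5:**
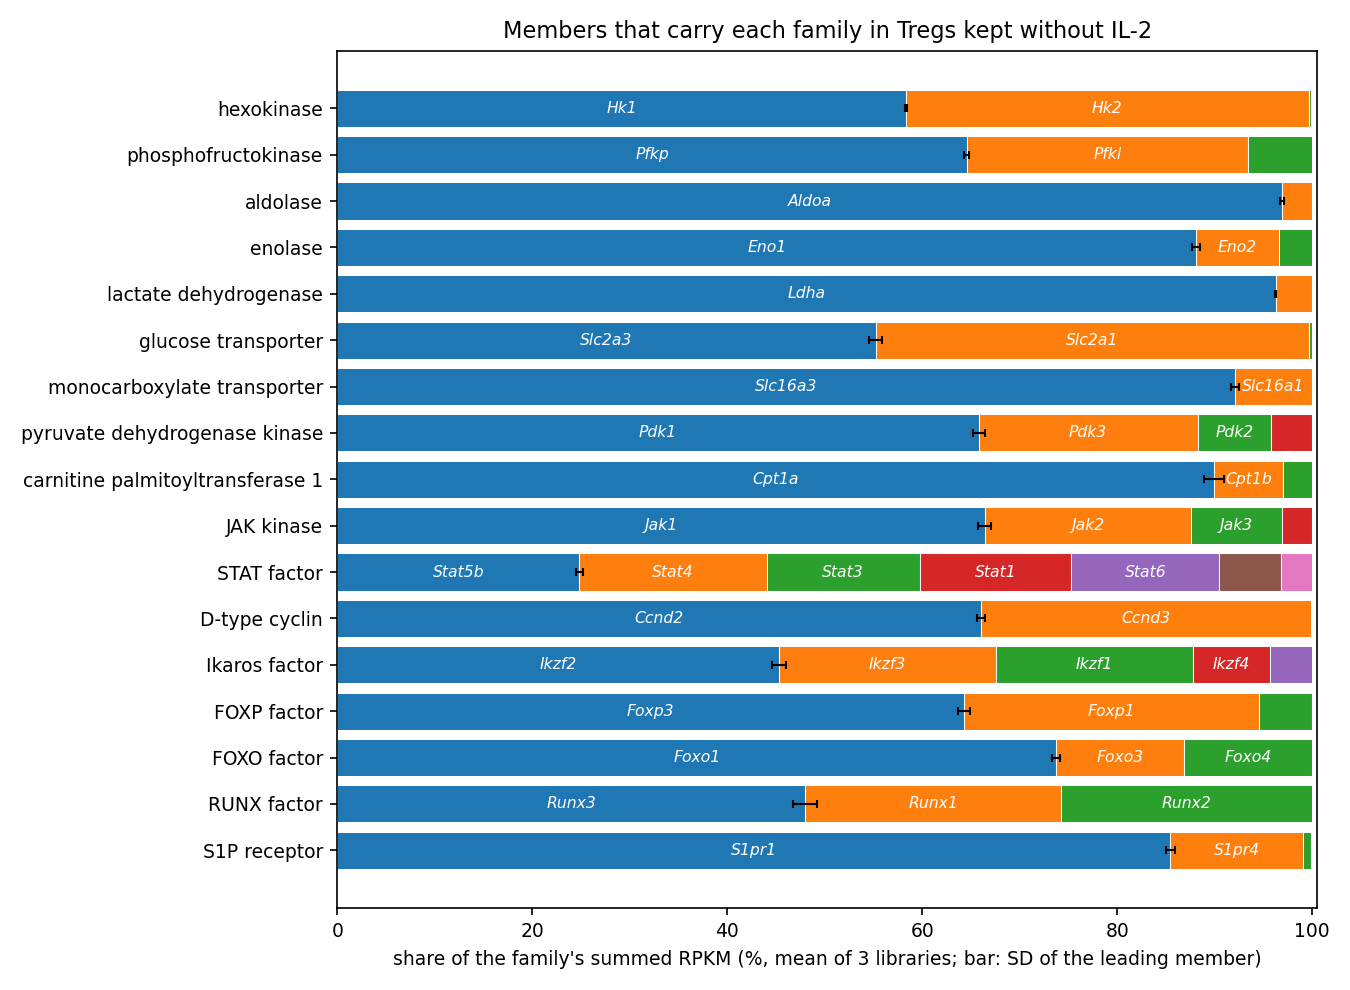
Share of each family's summed RPKM held by its members (percent, mean of 3 libraries; error bar, SD of the leading member; colours give the order within a family). Ldha, Aldoa and Slc16a3 hold over 90% of their families, while Hk1 holds 58.3%, Slc2a3 55.2% and Stat5b 24.8%.

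Mitochondrial genes were broadly expressed. In the respiratory chain and ATP synthase 55 of 61 genes reached 1 RPKM and 16 were high, with a median of 29.8 RPKM. Cox7a2l was at 238 ± 16.4 RPKM and Uqcrh at 182 ± 10.6 RPKM, and the silent members Cox6a2, Cox4i2 and Cox8b are tissue-specific forms. In the tricarboxylic acid cycle 31 of 35 reached 1 RPKM, led by Mdh1 at 61.6 ± 4.81 RPKM. Pdk1, which holds pyruvate back from the cycle, made up 65.8% ± 0.61 of its family at 30.02 ± 1.57 RPKM.

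Lipid genes were lower. Of 44 sterol and fatty acid synthesis genes 1 was high, Elovl5 at 77.5 ± 4.66 RPKM, and the median was 2.79 RPKM. The key enzymes of fatty acid synthesis were at 4.40 ± 0.302 RPKM for Fasn and 1.04 ± 0.0909 RPKM for Acaca, while Scd2 was at 28.6 ± 1.27 RPKM and held 93.5% ± 0.26 of the desaturases. No gene of fatty acid uptake and oxidation was high, but 24 of 36 reached 1 RPKM, with Hadhb at 34.1 ± 2.12 RPKM and Cpt1a, the gate of mitochondrial oxidation, at 12.7 ± 0.821 RPKM. Cpt1a thus stood 12.2 ± 0.49 times above Acaca. Fabp5 held 99.1% ± 0.51 of the fatty acid binding proteins, and Cd36 was at 0.104 ± 0.0428 RPKM.

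Of 30 amino acid transporters 13 reached 1 RPKM and 13 were silent (43.3% each), close to the shares over all genes, and none was high. Their median was 0.448 RPKM. Slc3a2 (CD98 heavy chain) was at 35.8, 32.1 and 22.2 RPKM, the lowest value in replicate 3, and its partner Slc7a5, which imports leucine, at 3.50 ± 0.310 RPKM. The glutamine transporter Slc38a2 was at 25.3 ± 0.916 RPKM and the cystine transporter Slc7a11 silent at 0.0475 ± 0.00569 RPKM. Among synthesis genes, Sat1, which breaks down polyamines, was at 100.6 ± 6.59 RPKM and Oaz1, the inhibitor of ornithine decarboxylase, at 94.0 ± 8.46 RPKM, above Odc1 itself at 24.8 ± 0.856 RPKM. Glud1, which turns glutamate to ketoglutarate, was at 79.7 ± 4.28 RPKM. Ass1 was at 84.5 ± 6.44 RPKM, but its reads equalled those of Gm5424 and are uncertain. In nucleotide synthesis 30 of 32 reached 1 RPKM, with the salvage enzyme Hprt at 64.2 ± 2.4 RPKM.

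Iron storage genes were high. The ferritin chains Fth1 (193, 221 and 201 RPKM) and Ftl1 (180 ± 17.6 RPKM) led the list, and the transferrin receptor Tfrc was at 48.2 ± 2.13 RPKM. The exporter Slc40a1 had no reads, which allows up to 0.00712 RPKM. Among antioxidants Sod1 was at 214 ± 12.7 RPKM and Gpx4 at 57.6 ± 3.6 RPKM, against 0.572 ± 0.00756 RPKM for Nqo1.

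Genes of G1, DNA replication and mitosis were present in these cells. All 43 mitosis genes reached 1 RPKM and 12 were high, with a median of 27.8 RPKM. Smc4, of the condensin complex, was at 529, 570 and 558 RPKM, and the proliferation marker Mki67 at 127, 141 and 140 RPKM. Hmgb2 was at 241 ± 6.67 RPKM and Top2a at 126 ± 5.69 RPKM. Smc4 hosts 2 microRNA genes, and whether any of their reads were counted in its transcript is not known. Of 33 DNA replication genes 32 reached 1 RPKM, with a median of 9.20 RPKM, led by Pcna at 75.8 ± 2.23 RPKM. Among G1 regulators the inhibitor Cdkn1b was the highest, Ccnd2 was at 28.8 ± 1.75 RPKM, Ccnd3 at 14.8 ± 1.07 RPKM and Ccnd1 silent at 0.0699 ± 0.0232 RPKM.

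The translation apparatus dominated by amount. The 85 ribosomal protein genes held 15.9% ± 0.24 of all RPKM, 81 were high, and the median was 445 RPKM. The 4 that were not high, Rpl39l, Rps4l, Rpl3l and Rpl10l, are tissue-restricted copies. Of 29 translation factors 28 reached 1 RPKM, and Eef1a2, the form of muscle and neurons, was silent at 0.00597 ± 0.0103 RPKM.

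Markers of other blood and stromal cells were low. Of 8 B cell markers 1 reached 1 RPKM (Cd79b, 1.04 ± 0.0894 RPKM), Pax5 was at 0.0757 ± 0.0649 RPKM, and the list summed to between 2.13 and 2.55 RPKM per library. Of 14 myeloid markers 1 reached 1 RPKM (Itgam, 1.38 ± 0.222 RPKM), Lyz2 had 0, 1 and 1 reads, and the sum was 2.45 to 2.86 RPKM. Of 9 CD8 T and NK cell markers 2 reached 1 RPKM, Cd8b1 at 2.84 ± 0.455 RPKM and Gzma. Ncr1 and Klre1 had no reads, and the sum was 6.38 to 7.16 RPKM. Of 14 erythroid, platelet and stromal markers only Pecam1 reached 1 RPKM, at 50.4 ± 3.48 RPKM. That gene, which lymphocytes also express, made up nearly the whole sum of 48.2 to 54.5 RPKM.

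The 3 libraries agreed closely for expressed genes. Over the 4523 genes at 10 RPKM or more the median coefficient of variation was 5.31%, against 2.02% from counting reads, and 94.7% of them were under 10%. Only 12 exceeded 30%. Replicate 1 was the lowest of the 3 for 3847 of the 4523, so this variation includes a shift that most of them share. After Itgb6 (71.7%), the most variable were Klhl41, Timmdc1, Smco1, Mir7058, Ctcfl, Sumf2, Gm16702, D17H6S53E and Zfp457. Klhl41, a muscle protein, was at 18.9, 15.0 and 6.93 RPKM, Timmdc1 at 33.7, 25.8 and 13.3 RPKM and Ctcfl, a testis factor, at 48.4, 39.6 and 21.6 RPKM. Of the 30 genes with a variation of 20% or more, 17 were highest in replicate 1 and lowest in replicate 3, an order seen in 102 of all 4523. Nanog (42.8%) and Ccl9 (37.4%), which lie under 10 RPKM, had the same order. The cause of this order was not tested.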

How the data were processed

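Each library has a table of 31682 RefSeq transcripts, with raw read counts and RPKM as the authors deposited them, per the file headers; each RPKM equals the reads over transcript length and a single divisor of its library. The submitters' processing notes list mm10 and the tools Bowtie2, TopHat2, edgeR, bedtools (2.25.0) and SAMtools (0.1.8). What each did, how reads were counted and whether strand was used is not given in the sources used here. The growth label describes a co-culture assay, so the culture rests on the treatment label.

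For each symbol the transcript with the most reads in the 3 libraries was taken (4343 symbols had several). Levels were computed with Python 3.11.15 and pandas 2.3.3, and TMM factors, an alternative scale, with edgeR 4.0.16. RefSeq (GRCm38.p6) gave positions for 23763 genes, matched by transcript or else by symbol, on the same chromosome. It also gave the most upstream promoter window, matched by symbol, chromosome and strand. With 1 group there is no test. Neighbouring levels were said to differ only where their 3 values did not overlap and the same gene was higher in every library.

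The group and the 41 lists (1299 of 1300 symbols in the tables) were chosen with earlier results of these data known. Any list member could be named, with the up to 5 highest and 5 lowest of a list first, besides the 20 highest and 10 most variable genes. Of these symbols, 282 overlap another annotated gene. Some genes are not reported here. The scripts were tested on simulated data.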

Additional observations from a re-analysis of the deposited data

How the results depend on the processing

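Level classes depend on the scale and the limits more than on the libraries. High genes numbered 770. They were 3998 on the TPM scale, 1533 with TMM library sizes, 1267 with all transcripts of a symbol summed and 325 with the limits doubled. The TMM factors themselves lay between 0.997 and 1.002. That scale divides by the reads in the transcripts taken, which are fewer than those in the RPKM divisor. It raised the named genes at 1 RPKM or more 1.68 times in the median. Moderate genes went from 3753 to 2128 with the limits doubled, and low genes from 5780 to 3490 on the TPM scale. Trace genes went from 3297 to 5642 where silent meant 3 reads or fewer in every library. High list memberships went from 261 to 600 (TPM) and 169 (limits doubled), and silent ones from 233 to 136 (TPM) and 139 (3 reads or fewer). The 20 highest genes held 9.46% of RPKM, or 10.9% with transcripts summed. Leaving out 1 library at a time gave 752 to 787 high, 10260 to 10516 silent genes and 9.42% to 9.49%; of 927 named genes at 1 RPKM or more only Itgb6 moved by over 1.5 times, to 32.5 RPKM without replicate 3. The longest transcript moved 3 of them, among them Cd247 and Cd84, by over 1.5 times. Summed transcripts, which count shared reads repeatedly, moved 217 genes by over 1.5 times. Ctla4, Bcl2 and Bcl2l11 are among the 217, so ratios with them hold only for the transcripts taken. A filter at 1 RPKM leaves no trace or silent genes to count, and the share of reads was not recomputed for summed transcripts. Values under 0.1 RPKM rest on few reads. No paired analysis was possible because the values come from 1 group and from no test.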

Other observations

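Further transcripts lie outside the lists above and are named after their values were seen. Xist, the noncoding RNA of the inactive X chromosome, was at 109, 108 and 125 RPKM. Of 47 genes placed on the Y chromosome, 43 had no reads and only Erdr1 reached 1 RPKM, at 31.0, 31.6 and 35.5 RPKM. The labels give no sex.

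Classes of noncoding genes differed. Of 20481 protein-coding genes 47.6% reached 1 RPKM, 3.58% were high and 40.0% were silent. Of 1781 long noncoding RNAs 13.0% reached 1 RPKM and 9 were high, and the read-rich Malat1 was at 333 RPKM. The level of short transcripts is uncertain in an mRNA library, and of 1029 microRNA genes 10.5% reached 1 RPKM. Of 114 small nucleolar RNAs 43.0% reached 1 RPKM, none was high and 21.1% were silent, a smaller share than of protein-coding genes.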
